A study of Schizosaccharomyces pombe with 6 samples.

Results

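A set of 9 genes of nitrogen starvation and ammonium uptake was followed in fission yeast (Schizosaccharomyces pombe) cultures with and without estradiol. They were chosen by name for their known roles, with earlier results of these data known. They are the permease genes isp4 (SPBC29B5.02c), isp5 (SPAC1039.09) and per1 (SPAP7G5.06), the ammonium transporter genes amt1 (SPCPB1C11.01), amt2 (SPAC664.14) and amt3 (SPAC2E1P3.02c), the vacuolar protease gene isp6 (SPAC4A8.04), the dioxygenase gene isp7 (SPAC25B8.13c) and the meiotic regulator gene mei2 (SPAC27D7.03c). By the reference, isp4 lies on chromosome II, amt1 on chromosome III and the other 7 on chromosome I, and all 9 code for proteins. All 9 were found among the 7016 features of the deposited table, and 8 of them reached the mean of 1 FPKM (fragments scaled by gene length and library total) needed to enter the test. The ninth, amt3, stayed below it and was described only.

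The cultures were asynchronous and in log phase in YES, a rich medium, at 30 °C. For 3 h before harvest, 3 cultures were given 1 µM beta-estradiol in ethanol and 3 control cultures were given the vehicle. The series title concerns a promoter that estradiol switches on, but the labels give no strain, activator or reporter. A feature named GFP is among the deposited values, at 147 ± 15.3 FPKM in the controls and 714 ± 141 FPKM with estradiol (SD, n = 3 each). The series design calls the 3 cultures of a group biological triplicates, and the labels do not say how they were grown apart. Libraries are named here by the column numbers 0 to 2 of the table. Fission yeast grown in rich medium is supplied with nitrogen, so the values describe these genes in cells that were not starved by design.

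Fission yeast grows by cell division while nitrogen is plentiful. When nitrogen runs out, the kinase complex around Tor2 loses activity, GATA-type transcription factors such as Gaf1 act on permease and catabolic genes, and cells can mate and enter meiosis under the factor Ste11 and the RNA-binding protein Mei2. Ammonium is taken up by the Amt proteins, amino acids and peptides by families of plasma membrane permeases, and proteins are recycled in the vacuole.

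Some of the promoters hold short sequences that factors of these programs are known to read. The windows below are the 250 bases before the annotated gene start in the RefSeq assembly ASM294v3, written 5′ to 3′ on the strand of the gene. The build behind the deposited values is not given in the sources used here, so these positions refer to ASM294v3 alone. The 5 genes shown have an annotated transcript start and are those whose values the comparison below turns on. Capitals mark GATAA or its reverse complement TTATC, the core read by GATA factors, and TTCTTTGTT, a core of the element read by Ste11.
isp7 (I:4183020-4183269, minus strand): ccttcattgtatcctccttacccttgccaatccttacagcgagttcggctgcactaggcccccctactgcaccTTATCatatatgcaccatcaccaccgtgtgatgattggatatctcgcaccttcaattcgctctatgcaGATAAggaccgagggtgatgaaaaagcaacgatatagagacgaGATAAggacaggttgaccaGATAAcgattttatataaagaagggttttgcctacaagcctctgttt
amt1 (III:2068729-2068978, plus strand): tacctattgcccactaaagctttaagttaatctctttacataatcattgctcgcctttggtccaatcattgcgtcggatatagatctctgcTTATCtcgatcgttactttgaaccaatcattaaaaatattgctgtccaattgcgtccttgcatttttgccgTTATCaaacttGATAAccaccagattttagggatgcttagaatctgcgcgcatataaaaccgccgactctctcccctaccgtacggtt
per1 (I:3749191-3749440, plus strand): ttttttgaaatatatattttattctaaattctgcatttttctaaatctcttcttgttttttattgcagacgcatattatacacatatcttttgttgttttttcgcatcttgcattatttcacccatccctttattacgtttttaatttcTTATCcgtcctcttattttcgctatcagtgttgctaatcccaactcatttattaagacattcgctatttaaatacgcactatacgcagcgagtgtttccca
amt2 (I:1730819-1731068, plus strand): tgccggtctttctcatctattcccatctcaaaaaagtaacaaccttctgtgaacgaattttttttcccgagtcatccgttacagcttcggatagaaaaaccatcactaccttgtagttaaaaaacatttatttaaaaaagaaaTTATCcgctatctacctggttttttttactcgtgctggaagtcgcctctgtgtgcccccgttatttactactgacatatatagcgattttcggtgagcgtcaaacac
mei2 (I:4515026-4515275, minus strand): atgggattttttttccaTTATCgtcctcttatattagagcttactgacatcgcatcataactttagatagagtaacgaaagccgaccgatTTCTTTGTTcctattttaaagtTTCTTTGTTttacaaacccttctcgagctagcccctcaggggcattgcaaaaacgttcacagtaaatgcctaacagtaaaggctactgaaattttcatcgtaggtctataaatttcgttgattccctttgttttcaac
On either strand, the longer GATAAG occurred in 10.4% of 4512 promoters with an annotated 5′ untranslated region. It was present once in the windows of amt1, per1 and isp5 and 3 times in that of isp7. Only 3 of the 4512 promoters held 3 or more GATAAG. The windows of amt2, isp6 and mei2 held none, and that of isp6 held no GATAA either. The shorter GATAA, which every GATAAG contains, was found in 54.1% of promoters and so marks few of them out. TTCTTTGTT occurred in 1.5% of promoters, and of the 9 windows only that of mei2 held it, 2 times, as or more often only in 6 of the 4512 promoters. For isp4 and amt3 the reference gives no transcript start. Their windows lie before the coding start and are not shown, and that of amt3 held 2 GATAAG while that of isp4 held none. A match describes the letters in the window and says nothing of whether a factor was bound.

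Without regard to library number, none of the 8 tested genes passed the test between the groups. limma, fitted to log2(FPKM + 1) across 6166 features with Benjamini-Hochberg adjustment, called 0 of 8 higher and 0 lower at an adjusted p under 0.05, where 7.98% of all tested features were called, 4.07% higher and 3.91% lower. At an unadjusted p under 0.05 there were 3 of 8 (amt1, mei2 and amt2), against 25.9% of all features. The estradiol values lay wholly on one side of the controls in those same 3 genes, above in amt2 and below in amt1 and mei2. Of all tested features 31.2% did so, 17.1% above and 14.0% below, a share close to 3 of 8. The log2 change was below 0 in 7 of the 8 genes, beside 2841 of all 6166 tested features. The 7 include isp6 at -0.01 and isp5 at -0.15. The median of the 8 genes was -0.51, beside a median of 0.02 over all tested features. When each estradiol library was instead set against the control library of its own number, 6 of the 8 genes passed the test, as described below.

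**Figure D1:**
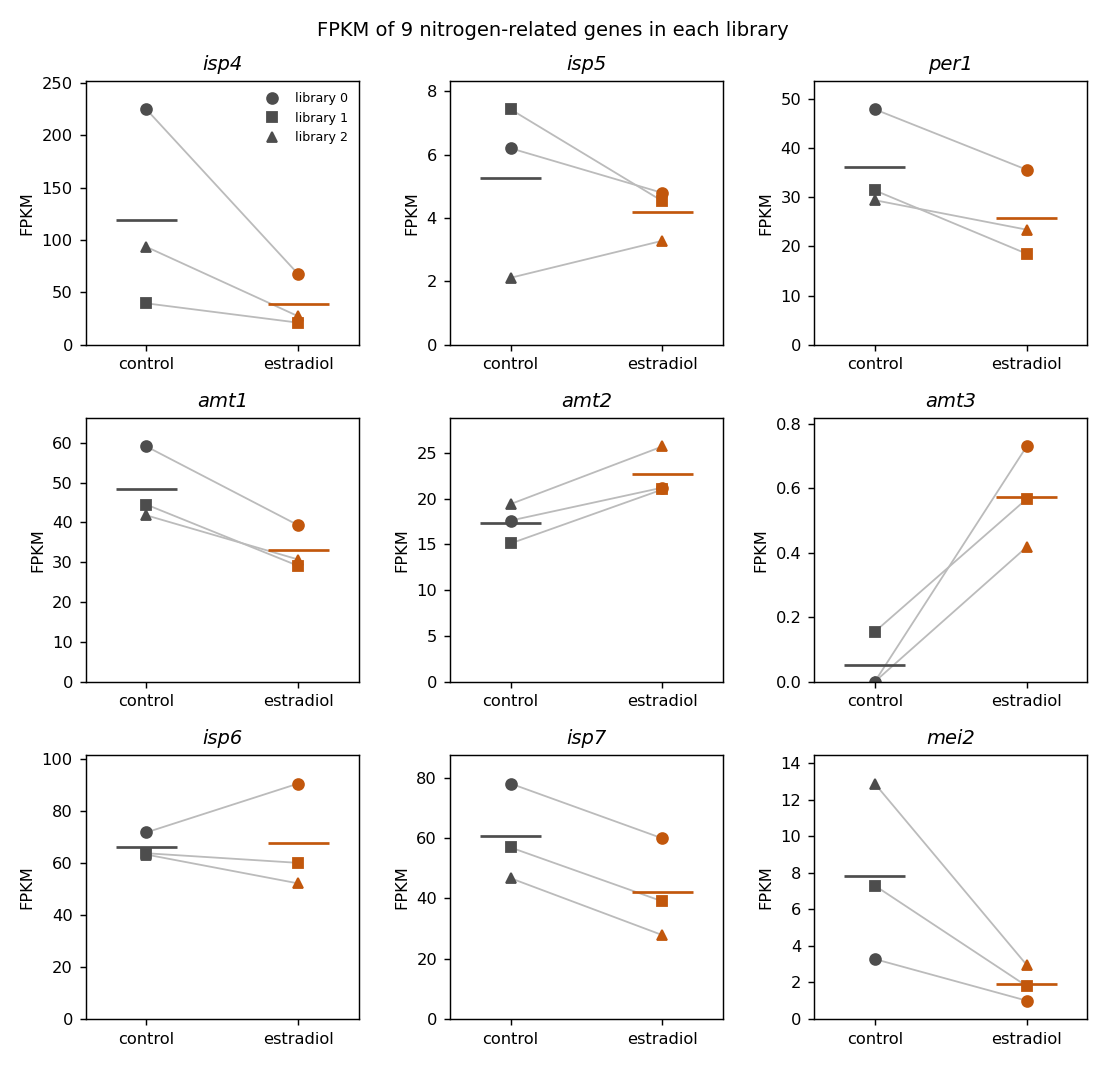
FPKM of each of the 9 genes in the 3 control and 3 estradiol libraries, with a linear axis from 0 in each panel. Symbols give the library number, grey lines join libraries of one number, and short bars are group means. The lines of isp4, per1, amt1, isp7 and mei2 all slope down and those of amt2 and amt3 all slope up.

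The permeases differed widely in level. isp4, a transporter of the oligopeptide family, was among the higher features of the table, with a control mean above that of 86.2% of features. Its values were 225, 39.5 and 93.5 FPKM in control libraries 0, 1 and 2, against 67.4, 21.0 and 27.1 FPKM in the estradiol libraries. The groups overlapped, because estradiol library 0 lay above control library 1. The means were 119 ± 95.5 and 38.5 ± 25.2 FPKM (SD, n = 3 each), and the log2 change was -1.45 (SE 0.67, limma adjusted p = 0.229). Its within-group SD on the log2 scale, 1.07, was larger than that of 100% of the 200 tested features nearest to it in level.

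per1, an amino acid permease gene, read 47.9, 31.4 and 29.4 FPKM in the controls against 35.6, 18.5 and 23.4 FPKM with estradiol. Again library 0 was the highest in both groups, and estradiol library 0 lay above 2 of the controls. The log2 change was -0.49 (SE 0.27, limma adjusted p = 0.305). isp5, another amino acid permease gene, was low, at 6.2, 7.43 and 2.11 FPKM in the controls and 4.79, 4.53 and 3.28 FPKM with estradiol. The lowest and the highest value of isp5 were both control values. Its log2 change of -0.15 had a 95% interval from -1.06 to 0.75 (limma adjusted p = 0.848), so a change in either direction could not be told from none.

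The ammonium transporter genes differed in direction. amt1 gave most of the amt transcript, at 59.1, 44.5 and 41.8 FPKM in the controls and 39.3, 29.1 and 30.7 FPKM with estradiol. Every estradiol value of amt1 lay below every control value. Its mean went from 48.4 ± 9.29 to 33.1 ± 5.51 FPKM (SD, n = 3 each), a ratio of 0.682, and the log2 change was -0.53 (SE 0.16, limma adjusted p = 0.0957).

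amt2 stood at 17.6, 15.1 and 19.4 FPKM in control libraries against 21.2, 21.0 and 25.7 FPKM in estradiol libraries. Here every estradiol value lay above every control value. The log2 change of amt2 was 0.36 (SE 0.12, limma adjusted p = 0.119). An antisense lncRNA, SPNCRNA.758, covers 1551 of the 2200 bases of amt2 in the reference and was more abundant, at 101 ± 6.04 FPKM in the controls and 114 ± 9.81 with estradiol. The labels' protocols name a TruSeq RNA kit of a type that does not mark strand, and how reads of overlapping genes were divided is not stated. The log2 change of SPNCRNA.758 was 0.18 (limma adjusted p = 0.231), and its part in the amt2 values was not tested.

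amt1 made up 77.0%, 74.4% and 68.3% of the summed FPKM of amt1, amt2 and amt3 in the controls and 64.3%, 57.4% and 54.0% with estradiol. The share was thus lower in each estradiol library than in any control. The sum itself ran from 59.7 to 76.7 FPKM in the controls and from 50.6 to 61.2 FPKM with estradiol, so these ranges overlapped. The ratio of amt1 to amt2 was 3.35, 2.94 and 2.16 in the controls and 1.86, 1.39 and 1.2 with estradiol.

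**Figure D2:**
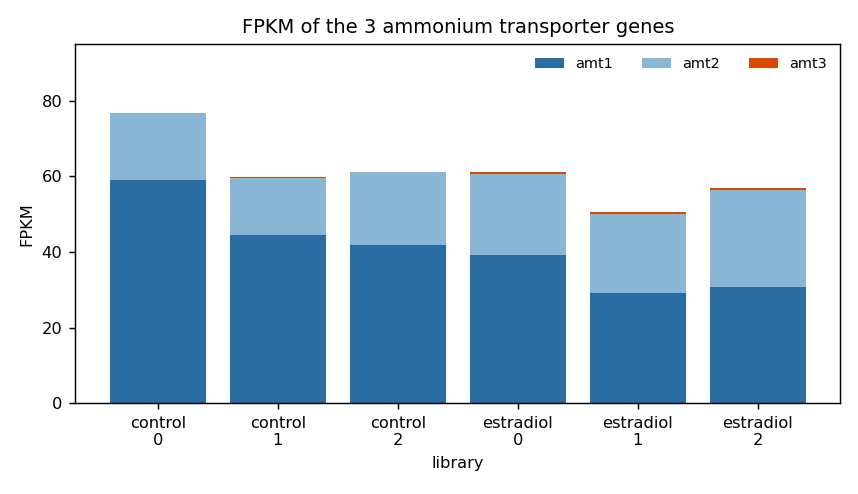
Stacked FPKM of amt1, amt2 and amt3 in each of the 6 libraries, on a linear axis from 0. The amt1 part shrinks and the amt2 part grows from the control to the estradiol libraries, and the amt3 part is at most 1.19% of a bar.

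amt3 was close to undetected. It was listed at 0 in control libraries 0 and 2, at 0.155 FPKM in control library 1, and at 0.73, 0.567 and 0.418 FPKM in the estradiol libraries. Judged by the spacing of the lowest values in each library, these correspond to about 1.5 fragments in control library 1 and about 3.7, 9.5 and 2.2 fragments with estradiol, of which the 9.5 of estradiol library 1 rests on the least regular spacing. amt3 entered the fit only when the filter on low values was dropped, and its log2 change was then 0.58 (limma adjusted p = 0.0468). The antisense lncRNA SPNCRNA.859 covers 1702 of its 1755 bases and was at 7.0 ± 0.491 FPKM in the controls and 8.38 ± 1.46 with estradiol. In control libraries 0 and 2, where amt3 was listed at 0, SPNCRNA.859 was at 6.44 and 7.37 FPKM. Whether the few amt3 fragments came from that strand was not tested.

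isp6, which encodes a vacuolar serine protease needed for the breakdown of autophagic bodies, showed the smallest log2 change of the 8 genes. It was at 71.7, 63.7 and 63.2 FPKM in the controls and 90.5, 60.0 and 52.1 FPKM with estradiol. Estradiol libraries 1 and 2 lay below all controls and estradiol library 0 above them. The log2 change was -0.01 with a 95% interval from -0.47 to 0.45 (limma adjusted p = 0.984).

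The transcript just upstream of isp6 behaved differently. SPNCRNA.834 is annotated on the same strand, spans 2046 bases and overlaps the start of isp6 by 70 bases, so it covers the whole window before the isp6 start. Its values were 1.66, 1.83 and 0.93 FPKM in the controls against 19.0, 12.3 and 11.4 FPKM with estradiol, a log2 change of 2.61 (limma adjusted p = 0.00421). The call of SPNCRNA.834 held without any single library, and its rise stood beside an isp6 level with means of 66.2 ± 4.73 and 67.5 ± 20.3 FPKM.

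isp7 encodes a protein of the oxoglutarate- and iron-dependent dioxygenase family that acts with Tor signalling on amino acid uptake. It was at 78.1, 56.9 and 46.7 FPKM in the controls and 59.9, 39.0 and 27.8 FPKM with estradiol. Estradiol library 0 lay above control libraries 1 and 2, so the groups overlapped. The log2 change was -0.55 (SE 0.29, limma adjusted p = 0.299), and the within-group SD exceeded that of 99.5% of the 200 features nearest in level.

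mei2, the gene for the RNA-binding switch into meiosis, was low in all libraries and lower with estradiol. Control libraries read 3.28, 7.31 and 12.9 FPKM and estradiol libraries 1.0, 1.8 and 2.96 FPKM. All estradiol values lay below all controls, yet the lowest control and the highest estradiol library were close. The means were 7.83 ± 4.83 and 1.92 ± 0.983 FPKM, and the log2 change was -1.49 (SE 0.46, limma adjusted p = 0.0973). In approximate fragments, the estradiol libraries held 11.7, 69.5 and 35.6 and the controls 55.2, 158.9 and 194.1, with the number for estradiol library 1, 69.5, the least certain.

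In order of control mean, the genes ran from isp4 (119 FPKM) through isp6 (66.2), isp7 (60.5), amt1 (48.4), per1 (36.2), amt2 (17.4), mei2 (7.83) and isp5 (5.25) to amt3 (0.0516). Per length, the neighbours isp4 and isp6, isp6 and isp7, isp7 and amt1, amt1 and per1, and mei2 and isp5 overlapped in the ranges of their control values. The ranges of per1 and amt2, amt2 and mei2, and isp5 and amt3 did not overlap.

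The genes also shared a pattern across libraries that was seen in both groups. In isp4, isp6, isp7, per1 and amt1, library 0 was the highest of its group among controls and among estradiol libraries alike. This held for 5 of the 8 tested genes and for 19.0% of all tested features. In mei2 and amt2 it was library 2 that was highest in both groups. In all, 7 of the 8 genes had the same number highest in both groups, as did 44.8% of all tested features. The within-group SD exceeded that of at least 86.0% of the 200 features nearest in level for 7 of the 8 genes, and of 67.5% for amt2.

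**Figure D3:**
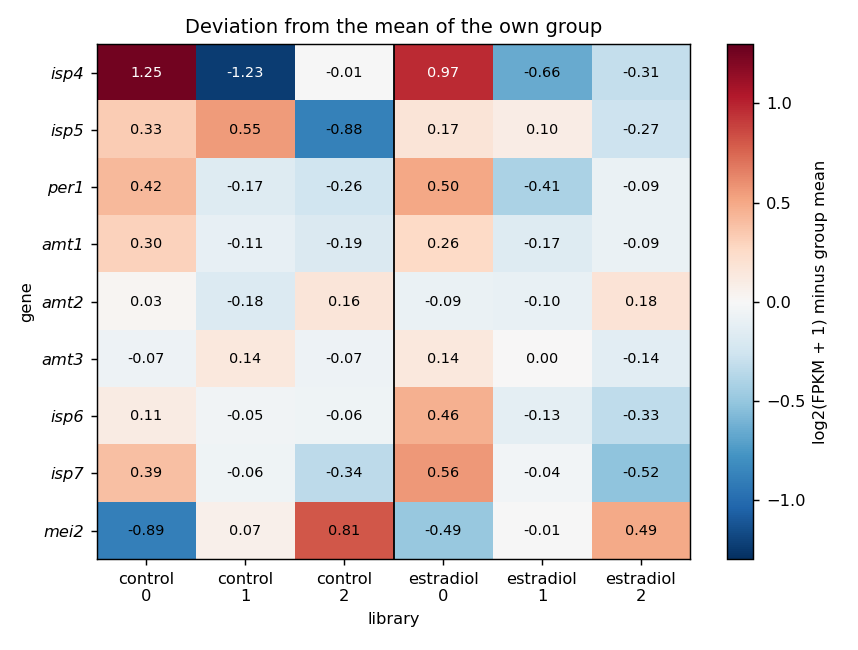
Deviation of each gene from the mean of its own group in each library, as log2(FPKM + 1) minus the group mean, with red above and blue below. In library 0 of both groups isp4, per1, amt1, isp6 and isp7 are above their group mean and mei2 is below it, at -0.89 and -0.49.

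Over all tested features, deviations of same-numbered control and estradiol libraries correlated at 0.152, 0.212 and 0.146. These correlations come from the same values that the block was then used to test. What same-numbered libraries have in common is not labelled. With the column number as a block, limma called isp4, per1, amt1, isp7 and mei2 lower and amt2 higher. These are 6 of 8 genes, beside 16.7% of all features. The 5 genes called lower compare with a background of 8.5% called lower, and the 1 called higher with 8.21%. The changes are those given above, since the block alters the error and not the estimate. The SE became 0.18 for isp4, 0.1 for per1, 0.06 for amt1, 0.08 for isp7, 0.22 for mei2 and 0.08 for amt2. limma's adjusted p with the block was 0.00788 for isp4, 0.0273 for per1, 0.00771 for amt1, 0.0124 for isp7, 0.0129 for mei2 and 0.0399 for amt2. isp5 (adjusted p = 0.719) and isp6 (adjusted p = 0.967) were not called.

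The ratios within numbers show the sizes. isp4 with estradiol was 0.299, 0.531 and 0.29 times the control library of the same number. mei2 stood at 0.306, 0.246 and 0.229 times its same-numbered control. For amt1 the ratios were 0.666, 0.654 and 0.735, for isp7 0.767, 0.686 and 0.595, and for per1 0.744, 0.59 and 0.796. amt2 was 1.2, 1.39 and 1.33 times its controls. All 3 ratios were below 1 in 5 of the 8 genes and in 24.1% of tested features. isp6 and isp5 had ratios on both sides of 1.

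**Figure D4:**
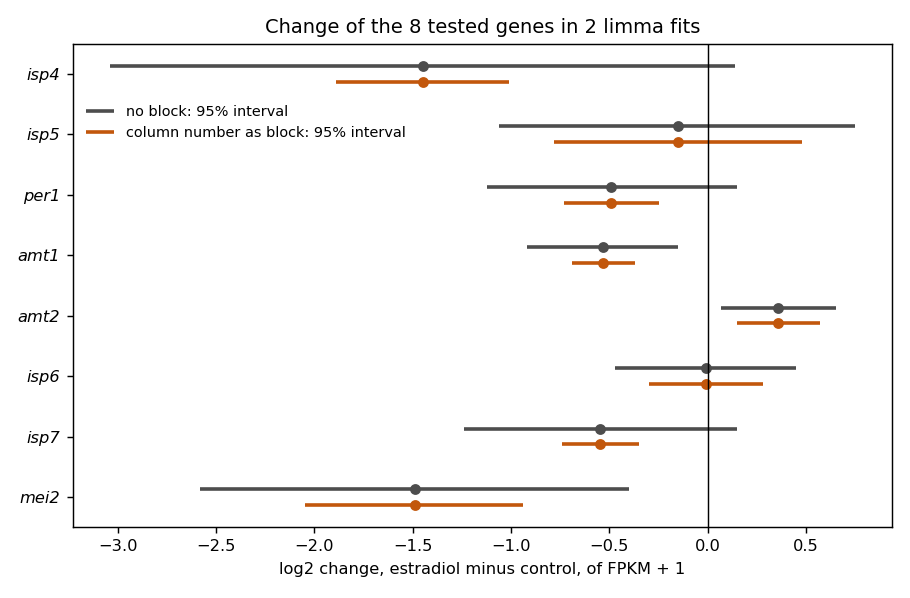
Log2 change, estradiol minus control, of the 8 tested genes with limma's 95% interval, without a block (grey) and with the column number as a block (orange). The estimates coincide, and the blocked intervals of isp4, per1, amt1, isp7, mei2 and amt2 all leave out 0.

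The blocked calls rest on 3 pairs. Without pair 0, limma with the block called 2 of the 8 genes lower, isp7 (adjusted p = 0.0379) and mei2 (0.0293). Without pair 1 only isp4 was called (adjusted p = 0.0023). Without pair 2 the calls were isp4 (adjusted p = 0.0482), amt1 (0.0334) and isp7 (0.0471). Calls fell over the whole table as well. Of all 6166 tested features, 144, 141 and 215 were called lower without pairs 0, 1 and 2, beside 524 with all pairs. The call of per1 was lost without any pair (adjusted p = 0.0977, 0.109 and 0.0647), and so was that of amt2 (0.0881, 0.207 and 0.151). amt2 was also not called under the block with quantile normalization (log2 change 0.26, limma adjusted p = 0.0983). The sign of the change could not differ between these 3 fits for any of the 6 genes. Their ratios within numbers all lay on the same side of 1.

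Genes that act beside these 9 were read from 5 lists of other nitrogen-related genes, which together held 74 tested genes. limma called 2 higher and 3 lower without the block, which is 6.76% beside 7.98% of all features. With the block it called 4 higher and 12 lower, 21.6% beside 16.7%. Pooled over directions, both shares are near the background, and the median log2 change was -0.01. By direction with the block, 8.21% of all features were called higher and 8.5% lower. The 12 lower of 74 lie above that share and the 4 higher below it. Of the 12, 7 came from the list of nitrogen assimilation enzymes, described next. The lists were chosen with earlier results of these data known.

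The list of nitrogen assimilation enzymes gave all 3 of the genes called lower. It also holds enzymes of nitrogen breakdown, such as gdh2, car1 and car2. Of 7 tested, gdh1, gdh2 and asn1 were called lower, beside 3.91% of all features. The other 4 were not called, and the list median was -0.65. gdh2, a glutamate dehydrogenase gene, was at 42.2 ± 2.94 FPKM in the controls and 18.8 ± 1.47 with estradiol (log2 change -1.13, limma adjusted p = 0.00237), and its call held without any single library. gdh1, the other glutamate dehydrogenase gene, went from 317 ± 49.5 to 150 ± 23.3 FPKM (-1.07, adjusted p = 0.0126), a call lost without estradiol library 1 (0.0594). asn1, the asparagine synthetase gene, had a log2 change of -0.42 (limma adjusted p = 0.00914), a call lost without control library 1 (0.0511) or estradiol library 1 (0.0503). Under quantile normalization asn1 had a log2 change of -0.23 (limma adjusted p = 0.0528) and was not called. With the block all 7 were called lower, adding gln1, glt1, car1 and car2, beside 8.5% of all features. Without pairs 0, 1 and 2 the list gave 6, 5 and 4, beside 144, 141 and 215 of all 6166 tested features called lower. gln1, the glutamine synthetase gene, which takes up ammonium into glutamine, was at 324 ± 53.2 and 211 ± 36.1 FPKM (-0.61, limma adjusted p = 0.058 without the block). The arginase gene car1 had -0.68 (limma adjusted p = 0.0996 without the block). ure2 stayed below the filter on low values.

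Of 9 other amino acid and peptide permease genes, limma called 0 without the block, and the median was -0.22. There 3 had an unadjusted p under 0.05, beside 25.9% of all features. These were agp3, which was higher (log2 change 0.3), and fnx2 (-0.4) and ptr2 (-0.27), which were lower. With the block limma called 4 lower, beside 8.5% of all features, but 0 without pair 0, 0 without pair 1 and 2 without pair 2. The 4 were put4, aat1, ptr2 and fnx2, named after their values were seen. put4 was at 32.5 ± 12.4 and 22.2 ± 7.63 FPKM (log2 change -0.51, limma adjusted p = 0.374, and 0.046 with the block). cat1, a cationic amino acid transporter gene, was at 41.7 ± 4.92 and 45.7 ± 6.66 FPKM (0.12, limma adjusted p = 0.619). The names dur3-1, dur3-2 and dur3-3 did not match the reference.

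The signalling genes had changes close to 0. Of 22 tested genes of nitrogen and Tor signalling, 1 was called higher, 0 lower and 21 were not called, and the median was -0.03. Of all features 4.07% were called higher and 3.91% lower. tor2, whose kinase controls growth on nitrogen, was at 57.6 ± 1.41 and 59.4 ± 2.21 FPKM (log2 change 0.04, limma adjusted p = 0.703). gaf1, the GATA factor gene, was at 63.7 ± 3.01 and 54.8 ± 0.604 FPKM (-0.21, limma adjusted p = 0.0766, and 0.0557 with the block). The kinase gene ppk18 was the one called, from 23.9 ± 0.626 to 35.1 ± 5.8 FPKM (0.53, adjusted p = 0.0446), and its call held only when estradiol library 2 was the one left out (highest adjusted p = 0.142 otherwise). It was also lost under quantile normalization (0.47, limma adjusted p = 0.088), without the filter on low values (0.0653) and without the intensity trend (0.0646).

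Around mei2, 1 of 9 tested genes was called higher, beside 4.07% of all features, and 0 lower. The list median was 0.15. mei4, a forkhead transcription factor gene of middle meiosis, rose from 7.07 ± 1.08 to 12.6 ± 1.54 FPKM (log2 change 0.76, limma adjusted p = 0.0282), a call lost without control library 0, control library 1, estradiol library 1 or estradiol library 2 (highest adjusted p = 0.107) and under quantile normalization (0.58, adjusted p = 0.0654). ste11, whose product activates mei2 transcription, was at 16.6 ± 6.36 and 14.4 ± 3.23 FPKM (-0.15, limma adjusted p = 0.801). pat1, the kinase gene that holds Mei2 inactive, was at 7.11 ± 0.126 and 7.81 ± 0.304 FPKM (0.12, limma adjusted p = 0.521). mei3, the gene for the inhibitor of that kinase, was below the filter, at means of 0.231 and 0.253 FPKM.

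Of 27 tested genes of autophagy and vacuolar proteolysis, limma called 0 without the block, and the median was 0.06. There 5 had an unadjusted p under 0.05, beside 25.9% of all features. Of these, atg3, atg5, atg6 and atg16 were higher and cpy1 was lower. With the block limma called 2 higher (atg5 and atg16) and 1 lower (cpy1), 11.1% beside 16.7% of all features. Without pairs 0, 1 and 2 it called 0, 0 and 1 in all. atg8, the gene for the ubiquitin-like protein of autophagosomes, was at 50.5 ± 4.66 and 49.9 ± 3.84 FPKM (log2 change -0.02, limma adjusted p = 0.938). psp3, which like isp6 encodes a subtilisin-type protease, was at 96.1 ± 3.79 and 85.7 ± 7.93 FPKM (-0.17, limma adjusted p = 0.237).

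**Figure D5:**
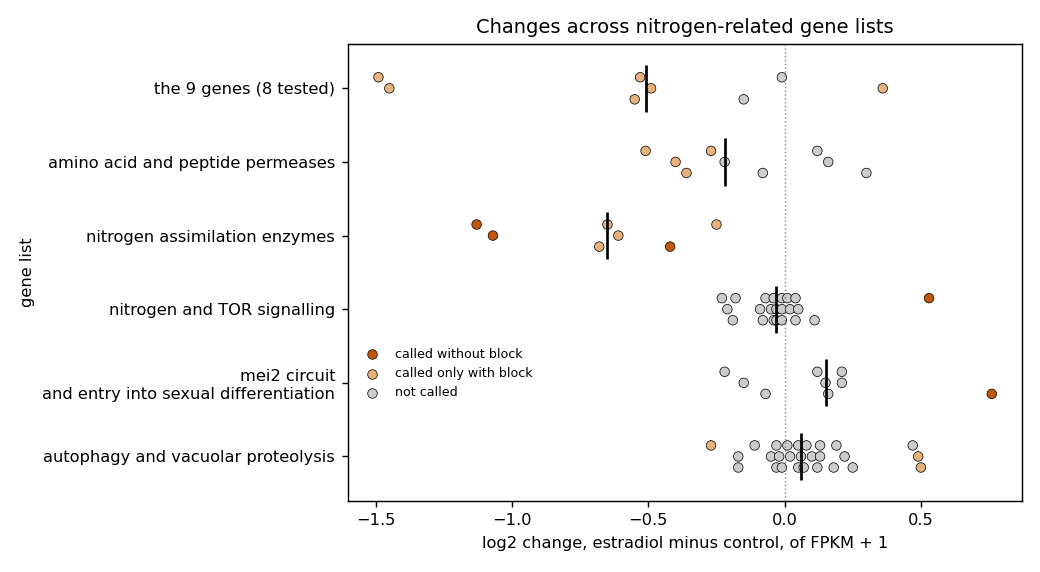
Log2 change, estradiol minus control, of every tested gene in the set of 9 and in 5 lists of related genes, 1 point a gene, with list medians as vertical bars. Dark orange points were called by limma without a block, light orange points only with it, and grey points by neither. The list labelled nitrogen assimilation enzymes, which also holds enzymes of nitrogen breakdown, lies wholly below 0. Signalling genes cluster near 0.

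The genes next to the 9 on the chromosomes were called at a share near the background. Of 18 flanking protein-coding genes, 16 were tested, and limma called 1 lower and 0 higher without the block, and 1 lower and 1 higher with it. These shares, 6.25% and 12.5%, compare with 7.98% and 16.7% of all tested features. The one called lower was rpl1002, a ribosomal protein gene that lies 4534 bases from per1, with a log2 change of -0.47 (limma adjusted p = 0.0342). Its call was lost without control library 0, control library 1, estradiol library 1 or estradiol library 2 (highest adjusted p = 0.119), under quantile normalization (-0.19, adjusted p = 0.155) and without the intensity trend (adjusted p = 0.0546). With the block mdv1, 1326 bases beyond amt2, was called higher as amt2 was, with a log2 change of 0.40 (limma adjusted p = 0.0522 without the block). The gene atf1 beside isp4 was at 63.0 ± 3.56 and 54.1 ± 6.19 FPKM, and omt2 beside mei2 at 11.4 ± 1.48 and 11.4 ± 0.132 FPKM, neither called.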

How the data were processed

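Per the labels' protocols, ribosomal RNA was removed and TruSeq libraries were sequenced in pairs of reads on a MiSeq. The authors deposited FPKM values for each gene in each of 6 libraries. The submitters' processing notes name CASAVA 1.4, TopHat2 and Cuffdiff without roles. Build, annotation and any scaling across libraries were not given in the sources used here. The prefix of a column was matched to the condition number of the titles, and the treatment label of those samples set the group. No column could be tied to a single title. Deviations of same-numbered libraries correlated at 0.146 to 0.212 over tested features, and at -0.149 to -0.0112 for other pairs. Deviations within a group cancel out, so positive values for same numbers go with negative ones for other pairs.

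Of 7016 features, 6166 with a mean of at least 1 FPKM were tested, 2-sided, with limma 3.58.1 (R 4.3.3). Values entered as log2(FPKM + 1), which understates the change of low genes, and the prior followed the intensity trend. Benjamini-Hochberg adjustment ran over all tested features, and the fit was tested on simulated data. The table holds no counts, so no counting interval is given. The spacing of the lowest values times exon length gave about 2.87 to 9.18 fragments in units of 1e6 per library, highest in estradiol library 1. The spacing was least regular in that library, with a score of 0.42 (1 is perfect) against 0.56 to 0.76 in the others, so its depth is the least certain. The exon lengths behind the deposited values are not known either, so fragment numbers are approximate. Standard deviations (SD) are over 3 libraries, and standard errors (SE) and 95% intervals are limma's. P-values set the difference between groups against the spread between these libraries. With the block they set it against the spread of the differences between same-numbered libraries.

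Named are all 9 members, up to 3 called genes of each list in each direction, and called neighbours. Other list genes and neighbours with values were named after their values were seen. Members and lists were chosen with earlier results of these data known. Names, neighbours and promoters came from ASM294v3, to which 6845 identifiers matched, 9 of 9 members among them. Of 89 list names, 76 matched. Pseudocount, filter, scaling and trend were varied, each library was left out, and the column number was used as a block. The block without each pair, with other scalings or with a pseudocount of 5 was added after the data were seen. Python 3.11.15, pandas 2.3.3 and matplotlib 3.10.9 were used.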

Additional observations from a re-analysis of the deposited data

How the results depend on the processing

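Without the block, 0 of the 9 genes were called by limma under another pseudocount, filter, scaling or prior, except amt3, the 1 called higher when low values were not filtered. Among the 8 tested genes, 3 had an unadjusted p under 0.05 under the settings of the report. The replicate block called 1 higher and 5 lower, also with median-ratio scaling or a pseudocount of 5, and 0 higher and 5 lower with quantile normalization. Leaving out a pair under the block gave 0 higher and 1 to 3 lower, and leaving out a library without it 0 and 0.

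Over all features the counts of 251 higher and 241 lower became 144 and 108 under quantile normalization and 506 and 524 with the block. With block and median-ratio scaling they were 459 and 582, and with block and a pseudocount of 5 they were 504 and 520. With block and quantile normalization they were 365 and 321. Without single libraries they ran from 42 to 242 and from 32 to 206, lowest without estradiol library 1, and from 124 to 162 and from 141 to 215 when a pair was left out under the block, with 156 and 144 without pair 0. The other nitrogen-related genes, 2 higher and 3 lower, gave 1 higher without the filter, with a minimum mean of 10 FPKM or without the trend, and 0 higher and 2 lower under quantile normalization. With the block they gave 4 and 12, with block and median-ratio scaling 4 and 13, with block and quantile normalization 1 and 8, and with block and a pseudocount of 5 again 4 and 12. Leaving out a library gave 0 to 1 higher and 1 to 4 lower, and leaving out a pair 0 to 1 and 5 to 6.

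The uncalled changes of isp5 and isp6 changed sign. That of isp5, -0.15, was 0.01 without control library 0, 0.12 without control library 1 and 0.07 under the block without pair 1, and its lowest value was -0.59, without control library 2. That of isp6, -0.01, was 0.05 without control library 0 or estradiol library 1, 0.15 without estradiol library 2, and 0.03 and 0.12 under the block without pairs 1 and 2, and its lowest value was -0.24, without estradiol library 0. The other 6 tested genes kept their sign in all alternatives run, with log2 changes from -2.07 to -0.83 for isp4, from -1.94 to -0.83 for mei2, from -0.66 to -0.39 for amt1, from -0.83 to -0.29 for isp7, from -0.74 to -0.28 for per1 and from 0.26 to 0.44 for amt2. When a pair was left out under the block, the sign of those 6 could not turn, because their ratios within numbers all lay on the same side of 1. The causes of the shifts above were not tested. Depth limits amt3 most, at under 10 approximate fragments a library.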
